A study of Mus musculus with 2 samples.

Results

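The genes described here are the mouse mirtron candidates numbered Mir6896 to Mir7094, taken by gene number alone from the GENCODE M21 annotation and required to be listed in both count tables. There were 201 such genes of 2202 miRNA genes in the tables. Small RNA was sequenced from adrenal glands of female B6CASTF1/J mice (an F1 hybrid strain) aged 2 months, untreated as far as the labels say, and 2 libraries formed the only group. The tissue descriptions number different females, although both libraries carry the same donor label, so SDs over the 2 replicates (n = 2 throughout) may measure technical spread. With 1 group there was no contrast between conditions, and the questions were whether these genes were detected, how their hairpins sit in introns, and what their sequences share.

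A mirtron is a short hairpin released from an intron by the splicing machinery and a debranching step, in place of the first cut by the nuclease Drosha that most miRNA precursors need. The second nuclease, Dicer, then cuts the hairpin into a 5p and a 3p strand. In a conventional mirtron both hairpin ends are the ends of the intron. In a tailed mirtron only 1 end is, and the remaining intron sequence is trimmed away. A 5′-tailed mirtron ends at the 3′ splice site, which lies behind a run of pyrimidines and closes with AG.

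The hairpins of 3 detected members and of Mir6968 are shown first because they were among those with the most counts in both libraries together. Capitals mark the first and last pair of intron bases where they fall at a hairpin end, and sequences are in transcript direction as DNA. Mir7080 is added as a member whose hairpin spans its whole intron.
Mir7069: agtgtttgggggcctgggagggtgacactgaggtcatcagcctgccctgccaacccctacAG
Mir7031: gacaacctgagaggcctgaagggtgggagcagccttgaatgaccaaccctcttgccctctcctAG
Mir6990: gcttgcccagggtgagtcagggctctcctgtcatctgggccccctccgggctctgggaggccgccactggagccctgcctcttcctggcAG
Mir6968: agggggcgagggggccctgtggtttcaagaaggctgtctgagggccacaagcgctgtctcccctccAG
Mir7080: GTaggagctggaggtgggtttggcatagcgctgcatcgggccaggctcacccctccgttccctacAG
The first 4 close with the AG of the intron and open inside it, whereas Mir7080 opens with the intron's GT and closes with its AG.

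The mature strands of the same 4 members, as RefSeq lists them for GRCm38.p6 (the assembly behind mm10), show the strand bias described further on. Capitals mark the seed, bases 2 to 8, which guides target pairing.
miR-7069-5p: uUGGGGGCcugggagggugacac
miR-7069-3p: cCUGCCCUgccaaccccuaca
miR-7031-5p: cCUGAGAGgccugaaggguggga
miR-7031-3p: aACCCUCUugcccucuccuag
miR-6990-5p: cCCAGGGUgagucagggcucu
miR-6990-3p: aGCCCUGCcucuuccuggcag
miR-6968-5p: aGGGGGCGagggggcccugugg
miR-6968-3p: aCAAGCGCugucuccccuccag
No 2 of these 8 strands have the same seed.

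The block held a very small part of the adrenal miRNA reads, with 384 of 2839732 gene counts in replicate 1 and 370 of 2280028 in replicate 2. These were 0.0135% (exact 95% interval 0.0122 to 0.0149) and 0.0162% (0.0146 to 0.0180) of the counts on the strand of the gene, or 0.0149% ± 0.00191 on average, from genes that made up 9.13% of the annotated list. Intervals cover counting error only. Values are counts per hairpin gene, so the 5p and 3p strands could not be told apart. In whole tissue, fewer cells that express a gene and fewer molecules per cell cannot be told apart either.

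At the detection limit used here, 10 or more counts in both libraries, 4 of the 201 members were detected, against 15.5% of all miRNA genes. The other 2001 genes passed in 338 cases (16.9%). Yet reads were spread widely over the block. At least 1 count in either library was found for 134 members (66.7%), against 33.6% of all miRNA genes, and 75 members (37.3%) had a count in both libraries, against 25.2% of all. Among the remaining members, 30 had counts in replicate 1 only, 29 in replicate 2 only, and 67 had none. A count of 0 allows up to 3 counts, which is 1.06 CPM (counts scaled to 1000000 gene counts) in replicate 1 and 1.32 CPM in replicate 2, so the 67 genes were not detectable at this depth.

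Counts per member were small throughout. Both libraries together gave 1 to 3 counts for 65 members, 4 to 9 for 48 and 10 or more for 21. The median was 2 counts, and the median of the other miRNA genes was 0. No single member dominated: the highest held 4.11% of the 754 member counts, the 10 most abundant 28.8% and the 20 most abundant 46.0%. Across the 201 members, counts in the 2 libraries had a Spearman rho of 0.552, as a description of genes that share both libraries.

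Mir7069 (ENSMUSG00000098331.1, chr8:84867947-84868008, mm10, plus strand) had 16 counts in replicate 1 and 15 in replicate 2, or 6.11 ± 0.668 CPM, the highest mean of the block and rank 330 of all genes. It lies at the end of a 90-base intron of Farsa, a phenylalanyl-tRNA synthetase subunit. Mir7031 (ENSMUSG00000099063.1, chr5:121819209-121819273, minus strand), in a 9193-base intron of the signalling adaptor gene Sh2b3, had 11 and 14 counts. Mir6990 (ENSMUSG00000098413.1, chr19:6914196-6914286, minus strand), in a 5867-base intron of the nuclear receptor gene Esrra, had 12 and 10. This hairpin also lies within an exon of another annotated transcript, so its reads cannot be assigned to a spliced intron alone. Mir7047 had 10 in each library. These 4 were close to the limit in at least 1 library, and all of them stayed below 20 counts.

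**Figure D1:**
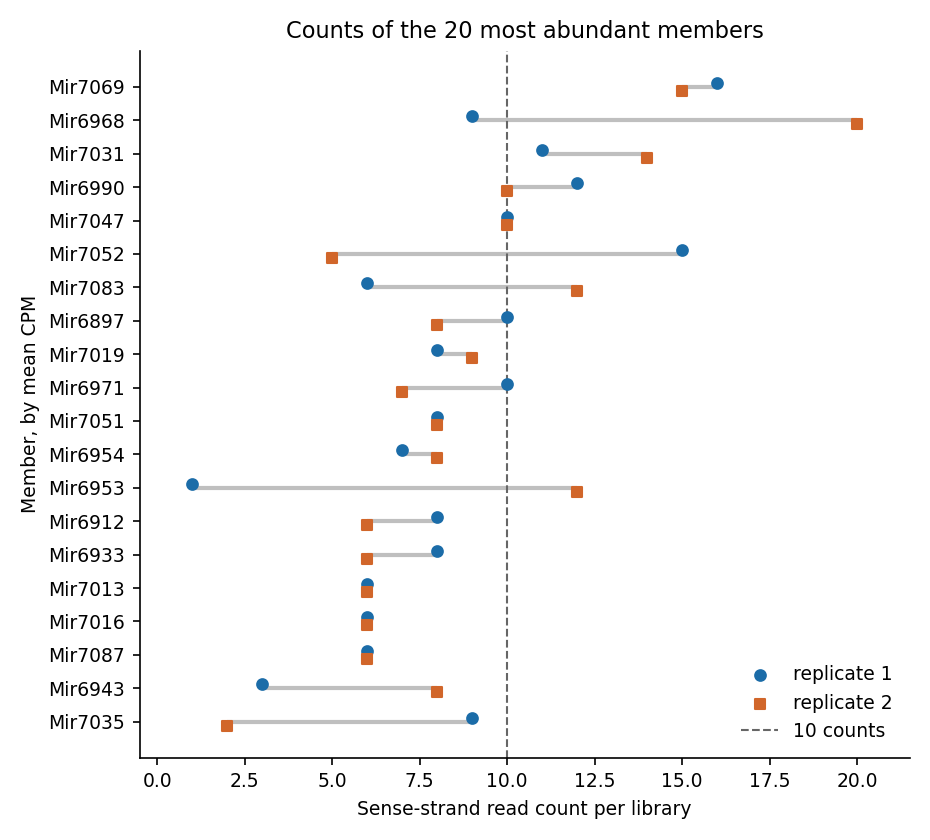
Sense-strand read counts (x axis) of the 20 members with the highest mean CPM (y axis), with circles for replicate 1, squares for replicate 2, a grey line joining them and a dashed line at 10 counts. Only Mir7069, Mir7031, Mir6990 and Mir7047 have both points at or above 10, and Mir6968, Mir6953 and Mir7052 have the widest gaps between libraries, 10 counts or more.

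A further 6 members reached 10 counts in 1 library only, which made 10 of 201 with that many in either library, against 17.9% of all miRNA genes. Mir6968 (ENSMUSG00000098510.1, chr17:26935472-26935539, plus strand), in a 142-base intron of the chromatin protein gene Phf1, had 9 counts in replicate 1 and 20 in replicate 2. Mir7052, in an intron of the deubiquitinase gene Josd2, had 15 and 5. Mir7083, in the GTPase exchange factor gene Dock6, had 6 and 12. These 3 differ in which library was higher. Mir6897 in Uggt1, a sensor of glycoprotein folding, had 10 and 8, and Mir6971 in the RNA helicase gene Skiv2l had 10 and 7. Mir6953 in Grina had 1 count against 12, the most uneven of the group.

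The other 10 of the 20 most abundant members had between 2 and 9 counts in each library. Mir7019 in the mitochondrial kinase gene Pink1 had 8 and 9, Mir7051 in the electron transfer gene Etfb 8 and 8, and Mir6954 in Mroh1 7 and 8. Mir6912 in Scamp4 and Mir6933 in the phospholipid synthesis gene Pgs1 each had 8 and 6. Mir7013 in the lipid kinase gene Pi4kb, Mir7016 in Tmem39b and Mir7087 in Sidt2 each had 6 and 6. Mir6943 in the receptor kinase gene Grk6 had 3 and 8, and Mir7035 in the Ras regulator gene Rasa4 had 9 and 2. The hairpins of Mir7019, Mir6954, Mir6912 and Mir7035 also lie within an exon of another annotated transcript, so the limit given for Mir6990 holds for them too. The hairpin of Mir7051 overlaps an annotated exon in part, so the limit may hold for some of its reads.

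Between the replicates, 6 members had a mean count of at least 10, a level that 16.8% of all miRNA genes reached, and entered the comparison of all 369 such genes. Mir6968 was the 1 member that passed, higher in replicate 2 by 2.77-fold (exact 95% interval 1.20 to 6.90, adjusted p = 0.0159 by the exact binomial test with Benjamini-Hochberg adjustment over the 369 genes, higher in 1 of 1 pair of libraries). A gene passed when it differed by 2-fold or more with an adjusted p below 0.05. Of all genes tested 18.7% passed, 8.67% as higher in replicate 2, so 1 of 6 members is near the background. Mir7052 had a ratio of 0.415 (0.118 to 1.20), replicate 2 over replicate 1, and did not pass. Mir7069 (1.17), Mir7031 (1.59), Mir6990 (1.04) and Mir7047 (1.25) did not pass either. The test sets 1 library against the other, with counting error as its only source of spread. The libraries also differed in RNA of other tissues: 8 muscle miRNA genes summed to 948 CPM in replicate 1 and 4.39 in replicate 2, and the erythroid genes Mir451a and Mir144 to 577 and 14430 CPM. Nearly all of the muscle sum came from Mir206, Mir499 and Mir208b, while Mir1a-1 (1 and 0 counts) and Mir1a-2 (2 and 0) were at or near 0, and Mir133a-1, Mir133a-2 and Mir133b at 0 in both. Reads that mapped to several places, 28.8% and 25.3% of all reads, are in no gene count, so these low counts do not show absence. The liver miRNA Mir122 was at 3721 and 2358 CPM, and the endothelial Mir126a at 43203 and 59463. The part of these tissues in the Mir6968 difference was not tested. Mir375, a neuroendocrine miRNA used as the marker of the labelled gland, was present at 39421 and 37780 CPM.

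The gene numbers follow the genome. The block covers 20 chromosomes, and of 200 pairs of members next to each other in numbering, 178 lie on the same chromosome, 175 of them in ascending position. Every number of the block has a gene symbol except 6967. The genes to which RefSeq assigns mature miR-6967, Gm27740 and Gm27775, share a stretch of sequence and had 0 counts in both libraries. At the edges of the block, Mir6896, Mir7094-1 and Mir7094-2 had no counts, while Mir6769b just below it had 2 and 2 counts and Mir7115 just above it had 2 and 1.

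Nearly all hairpins of the block lay at the end of a host intron. The block was chosen because its numbers hold mirtron candidates, so this position goes with the choice and is not an independent result. Of the 201 hairpins, 188 (93.5%) ended within 5 bases of the 3′ end of an annotated intron on their strand, against 39 (1.95%) of the other 2001 miRNA genes and 10.3% of all miRNA genes. In 187 of the 188 the hairpin's last base was the intron's last base, and in the remaining one it lay 1 base beyond. The last 2 bases of the hairpin were AG in 187 members (93.0%) and in 7.40% of the other miRNA genes. All 187 were among the 188 at a 3′ intron end, so the AG restates that position and is not a separate property. A total of 191 members lay wholly inside an intron. At least in part, 41 hairpins overlapped an annotated exon on the same strand, and 28 lay wholly within an exon of another annotated transcript. These 28, among them Mir6990, Mir7019, Mir6954, Mir6912, Mir7035 and Mir7080, had a count in 25 cases and held 82 of the 384 and 75 of the 370 counts. Over all 201 members a count was less frequent, at 134 (66.7%), so part of the wide spread of reads lay in exons of other transcripts.

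Most of the block had the layout of a 5′-tailed mirtron. The hairpin reached the 3′ intron end only in 173 members (86.1%), both ends in 15 (7.46%), the 5′ end only in 4 (1.99%) and neither end in 1, Mir7036b in Add1. The last 8 members overlapped an exon and matched no intron by this rule. In the 173, the intron sequence ahead of the hairpin had a median of 505 bases, with a range of 7 to 36205, and it was 50 bases or less in 34 members and over 1000 in 57. Among the 15 hairpins at both ends, 14 matched the intron exactly, and 13 opened with GT and closed with AG.

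**Figure D2:**
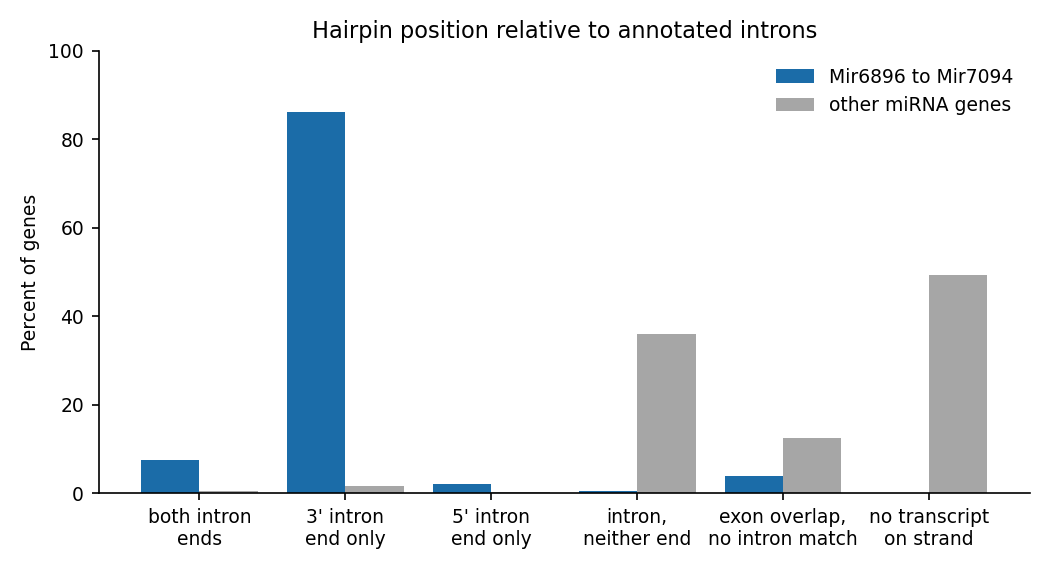
Percent of genes (y axis) in each class of hairpin position relative to annotated introns (x axis), for the 201 members (blue) and the 2001 other miRNA genes (grey). The members stand at 86.1% in the class that reaches the 3′ intron end only, where the other genes stand at 1.55%.

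The introns were not all short. Over the 193 members with a matched intron the median length was 479 bases, the quartiles were 116 and 1251, and the extremes were 66 and 36269. Introns of 200 bases or less held 67 members (34.7%) and introns over 1000 bases held 62 (32.1%). A short intron, the usual picture of a mirtron, was thus found for a part of the block only, while the position at the 3′ splice site was shared by nearly all. The introns were still far shorter than those of the 764 other miRNA genes with a matched intron, whose median was 14332 bases (3.14% at 200 or less).

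The shortest host intron, 66 bases, belongs to Sirt7, a deacetylase gene, and holds Mir6936, which had 2 counts and 0. The longest, 36269 bases in the transcription factor gene Klf7, holds Mir6899 at its very end, which had no count. The matched introns came from 189 host genes, and 4 hosts held 2 members each. Skiv2l held Mir6970 (5 and 1 counts) and Mir6971, and Srebf1, a regulator of lipid synthesis, held Mir6921 (6 and 3) and Mir6922 (1 and 5). Arap3 held Mir6980 (0 and 3) and Mir6981 (0 and 2), and Cmip held Mir7077 and Mir7078, both without counts.

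Counts were compared across these positions. Of the 173 members at the 3′ end only, 119 (68.8%) had a count, and they held 342 and 347 of the 384 and 370 counts. All 4 detected members and all 20 of the most abundant ones were in this class. Of the 15 members at both ends 10 had a count, with 33 and 19 counts in all. Mir7080 in Cpne7 led them with 5 and 5, followed by Mir6944 in the actin-binding protein gene Dbn1 with 6 and 3 and Mir7018 in the perlecan gene Hspg2 with 5 and 3. Counts per member, both libraries summed, were 3.98 in the first class and 3.47 in the second. Of the 8 members that matched no intron by the 5-base rule, 2 had counts, with 5 in all. These classes depend on the tolerance, since 196 members reached a 3′ intron end within 10 bases, against 188 within 5.

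By intron length, 50 of 67 members in introns of 200 bases or less had a count (74.6%), 46 of 64 in introns over 200 and up to 1000 bases (71.9%) and 36 of 62 in longer introns (58.1%). The mean over both libraries summed fell little along this order, from 4.33 to 3.75 and 3.53 counts per member, and 2 of the 4 detected members were in the longest group. Intron length and counts had a Spearman rho of -0.103 over 193 members, given as a description. Hairpin GC differed along the same order, with medians of 60.5%, 56.7% and 54.9%.

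**Figure D3:**
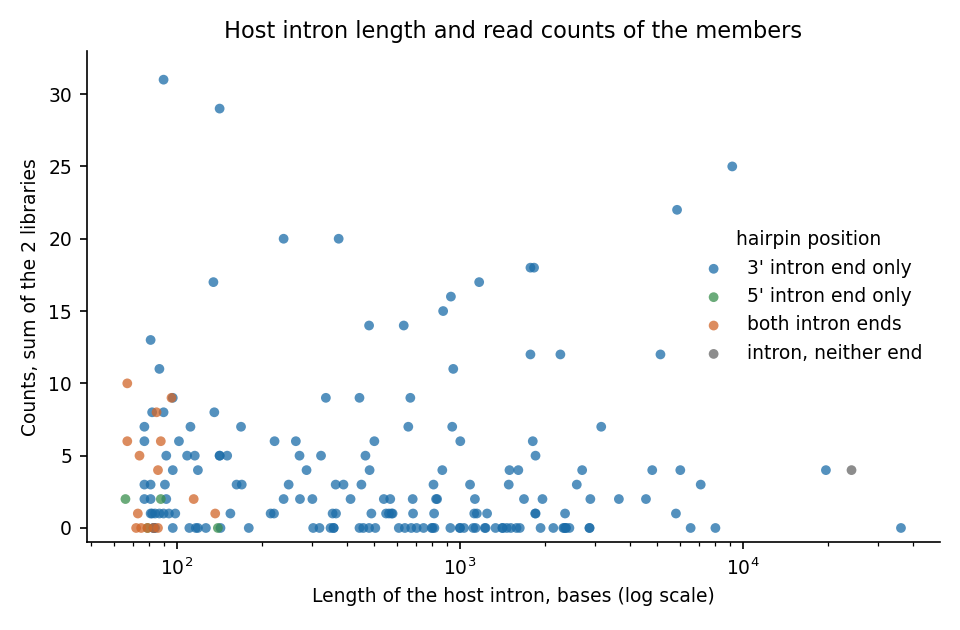
Counts of each member, both libraries summed (y axis), against the length of its host intron in bases (x axis, log scale), coloured by hairpin position, for the 193 members with a matched intron. Members with 10 or more counts occur in introns from 67 bases (Mir7080) to 9193 bases (Mir7031), and the 15 at both intron ends all lie below 140 bases.

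The hairpins were rich in G and C and short. Median GC was 57.1% in the members, with quartiles of 52% and 61.9%, and 50% (quartiles 42.1% and 57.5%) in the other miRNA genes. GC was above 50% in 81.6% of the members and in 48.8% of the others. Median hairpin length was 66 bases against 93. The predicted folding energy had a median of -26.2 kcal/mol in the members and -34.3 in the others, and per base it was -0.389 and -0.365. The 338 other genes that were detected had -0.433 per base, stronger than the members as a whole, and a median length of 84 bases. The 4 detected members had -0.442 per base. The other miRNA genes at a 3′ intron end resembled the block, with a median GC of 57.1% and a median length of 65 bases.

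GC differed by hairpin position too. The 15 members at both intron ends had a median GC of 63.0% and a median length of 83 bases, against 56.8% and 65 bases in the 173 at the 3′ end only. The lowest GC was 25.3%, in Mir6951 in the Azin1 gene, which had no count. The highest was 81.5%, in Mir6936.

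Members with counts had hairpins of higher GC. The median was 58.2% in the 134 members with a count and 52.2% in the 67 without, 59.3% in the 75 with a count in both libraries and 61.9% in the 21 with 10 or more counts in total. The 4 detected members lay between 58.5% and 70.3%, with a median of 61.1%, and the 197 others had a median of 57.1%. When the members were split by GC into 3 groups of 67, 31 (46.3%) of the lowest group had a count, 51 (76.1%) of the middle and 52 (77.6%) of the highest. The lowest group held 55 and 70 counts, the middle 149 and 128, and the highest 180 and 172, so the order was the same in both libraries. GC and counts had a Spearman rho of 0.329 over the 201 members, as a description. Among the other miRNA genes, the 338 with 10 or more counts in both libraries had a median GC of 50.5%, against 50% for all 2001. No median was taken for other genes with any count, so the trend cannot be called particular to the block.

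**Figure D4:**
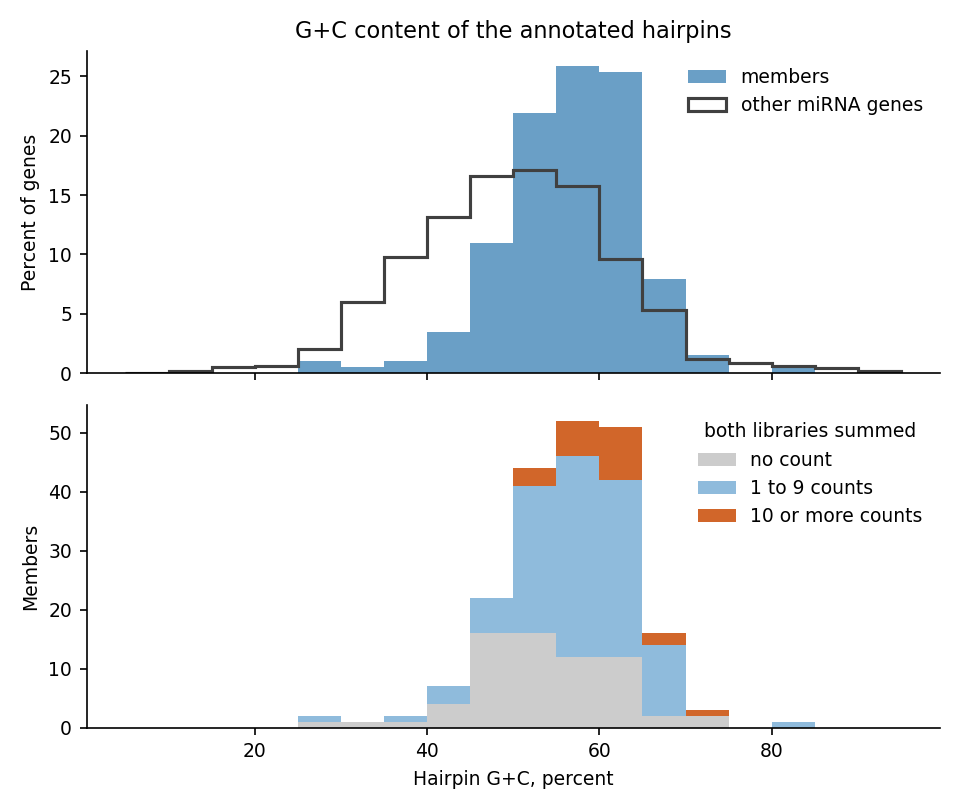
Upper panel: distribution of hairpin G+C in percent (x axis) as percent of genes (y axis) for the members (filled) and the other miRNA genes (line). Lower panel: number of members (y axis) by G+C, with colours for no count, 1 to 9 counts and 10 or more counts over both libraries; the median is 52.2% without a count and 61.9% with 10 or more.

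The mature strands had opposite compositions. RefSeq listed mature sequences for 185 members, and both strands for 169 of them. The 177 5p strands had a median G content of 43.5%, against 27.3% in the 654 5p strands of other miRNA genes, and 67.2% of them were over 40% G, against 17.7%. The 177 3p strands had a median of 72.2% C and U together, against 52.3% in 670 other 3p strands, and 60.5% of them were over 70%, against 9.70%. In miR-6968-5p, shown above, 63.6% of the bases were G.

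**Figure D5:**
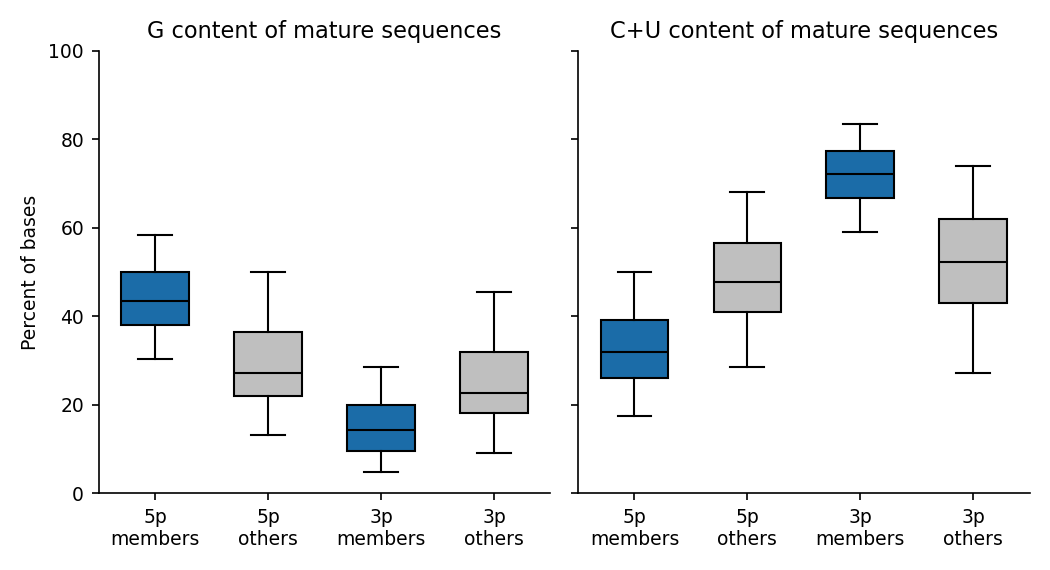
Percent of bases (y axis) that are G (left) and that are C or U (right) in mature 5p and 3p strands of members (blue) and other miRNA genes (grey). Boxes give the median and the quartiles and whiskers the 5th to 95th percentiles; the members' 5p strands are the most G-rich (median 43.5%) and their 3p strands the richest in C and U (median 72.2%).

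The 3p strand usually ended on the splice site as well. Over 167 hairpins at a 3′ intron end with a listed 3p strand, that strand ended on the last intron base in 130 and within 2 bases of it in 160, with a farthest distance of 7 bases, in Mir6933. AG closed 137 of the 177 3p strands (77.4%), against 11.0% of the 3p strands of other miRNA genes. This is another view of the same position, since the 3′ splice site closes with AG. Of the 4 members whose mature strands are shown above, miR-7031-3p, miR-6990-3p and miR-6968-3p ended on the last intron base and miR-7069-3p 1 base before it, so that the listed strand of Mir7069 leaves out the G of the AG.

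Seeds were mostly unlike each other. The 354 mature strands of the members had 325 distinct seeds, of which 24 occurred in more than 1 mature sequence of the block and none in more than 3. As an example, miR-6990-5p has the seed CCAGGGU in common with miR-7032-5p. A total of 40 seeds also occur in miRNAs outside the block. The pairs below are shown because they join a member with few counts to a gene with far more.
miR-6921-5p: uGAGGGGCaugagguaggaagc
miR-423-5p: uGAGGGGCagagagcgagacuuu
miR-7016-5p: cAGGGAGGggagcgagaguag
miR-149-3p: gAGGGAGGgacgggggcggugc
miR-7069-3p: cCUGCCCUgccaaccccuaca
miR-18a-3p: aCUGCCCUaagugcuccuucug
Mir6921 had 6 and 3 counts where Mir423 had 10291 and 6836. Mir7016 had 6 and 6 where Mir149 had 4935 and 4159, and Mir7069 had 16 and 15 where Mir18, the gene of miR-18a, had 357 and 227. These counts are per hairpin gene, so they do not say which strand was present, and a shared seed is a description of the letters only.

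Mirtrons known before this block was named were set beside it in the same libraries, with 4 of 4 genes detected, against 15.5% of all miRNA genes. This list was chosen with earlier results of these data known, so that count is not independent of them. Mir1981, at both ends of an 82-base intron of Marc2, had 1233 and 1367 counts (517 ± 117 CPM). Mir877, which fills an 85-base intron of Abcf1, had 383 and 388 (153 ± 24.96 CPM). Mir702 had 118 and 82 counts and matched no annotated intron by the rule used here. Mir1224, which fills an 85-base intron of Vwa5b2, had 18 and 12 counts (5.80 ± 0.761 CPM), a level that overlapped with that of Mir7069, Mir6968 and Mir7031 within their SDs. The other 3 known mirtrons exceeded every member in both libraries.

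Among the classes of numbered genes, the members had the highest share with a count in either library and the lowest share detected. The genes numbered just above the block had a similar but weaker pattern, so it was not particular to the members. Genes numbered under 1000 were detected in 254 of 514 cases (49.4%), those from 1187 to 3971 in 41 of 179 (22.9%) and those from 5046 to 6769 in 16 of 154 (10.4%). Genes numbered 7115 to 8120 were detected in 6 of 115 cases (5.22%), against 1.99% in the block. A count in either library was as frequent in the block (66.7%) as in genes numbered under 1000 (64.8%), although the median count of the latter was 34. Such a count was found in 54.7% of genes from 1187 to 3971, 31.2% from 5046 to 6769 and 48.7% from 7115 to 8120. The 1039 genes without such a number were detected in 2.02% of cases, near the block, but only 6.74% had a count in either library. They enter the shares over all miRNA genes given above. The highest total of any member was 31 counts, and in the neighbouring number classes it was 576 below and 142 above.

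Reads on the other strand were rare in the members. Over all miRNA genes there were 347784 and 355124 counts on the opposite strand, and the sense strand held 89.1% and 86.5% of both strands together. The members had 1 count in each library on the opposite strand, none overlaps a miRNA gene on that strand, and unstranded counting gave 385 and 371 counts. For 4 members, Mir6970, Mir7065, Mir7094-1 and Mir7094-2, the hairpin shares at least 20 consecutive bases with another miRNA gene, and a read from that stretch has no single place of origin.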

How the data were processed

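MicroRNA sequencing of female adrenal gland was analysed in 2 libraries of 1 group. The deposited values were raw read counts per miRNA gene, given without strand and for each strand, on mm10 with GENCODE M21 per the sample information deposited with them. The aligner and the counter are not given in the sources used here. The sense column, which had the larger total of the 2 stranded ones, was used. The 4 rows that name no gene (69.4% and 73.7% of 9278190 and 8659511 reads) were kept out of totals and tests. Among them were the reads that mapped to several places, 28.8% and 25.3% of all reads. Counts were scaled to 1000000 gene counts (CPM), without division by hairpin length. A count was worth 0.352 and 0.439 CPM.

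Hairpin sequences were taken from GENCODE transcripts, mature sequences from RefSeq (GRCm38.p6). Introns came from all non-miRNA transcripts on the strand, and the shortest matching one was used. Folding used RNAfold 2.7.2, tests scipy 1.17.1, TMM factors edgeR 4.0.16. The comparison of libraries was run on simulated counts with counting error only. It called 95 of 99 genes simulated at 4-fold, 2 of 100 at 1.5-fold and 2 of 167 without a change. Any further spread between libraries was not simulated, so the false calls in the real libraries are not known from it. A permutation test over 2 samples cannot go below an exact p of 0.5, so none was run. Named genes were the detected members, those passing the test, the members of highest mean CPM up to 20, and the extremes of GC and intron length. Other members, among them those at both intron ends, sharing a host or a seed, were named after their values were seen. The host gene of 1 detected member is not reported here. Members and lists were chosen with earlier results of these data known. Mature sequences were not used for Mir6920, Mir6950 to Mir6954, Mir6970 to Mir6972, Mir6979 to Mir6983, Mir7040 and Mir7064. Alternatives varied the count minimum, strand, scaling, libraries, intron tolerance and transcripts.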

Additional observations from a re-analysis of the deposited data

How the results depend on the processing

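The number of detected members depended on the limit: 75 members had at least 1 count in both libraries, 28 at least 3, 18 at least 5, and 10 had 10 or more in either library. None reached 10 CPM in both. With a single library, 7 members passed in each case. Over all miRNA genes, 25.2% had at least 1 count in both libraries and 17.9% had 10 or more in either. At the remaining limits here no share over all genes was counted, so the block cannot be placed against the rest. The share of gene counts was 0.0174% with unstranded counts, 0.00421% of all reads in the tables, and 0.0118% without the members inside an exon of another transcript (chosen after seeing the data); it ranged from 0.0135% to 0.0162% with 1 replicate left out. With no filter on low counts, 5 of 134 members passed the comparison of replicates, against 76 of all 739 genes tested: Mir6968, Mir6953 (1 and 12 counts), Mir6956 (0 and 7), Mir7038 (0 and 6) and Mir6959 (9 and 0). No member has a mean count of 100, so that setting gave no value. Mir6968 passed under every scaling and strand setting tried, with an adjusted p of 0.0138 to 0.0404 (exact binomial test). Mir6990, which did not pass, changed sign from a log2 ratio of 0.054 to -0.062 with TMM and -0.021 with median-of-ratios scaling. Median hairpin GC was 57.4% without members that share a stretch, and detected minus undetected members differed by 4.00 percentage points, or 3.10 at a minimum of 1 count and 2.38 at 3. Between 186 and 196 members ended at a 3′ intron end under other tolerances or coding transcripts only (also chosen after seeing the data). No paired analysis was possible because the labels give 1 group. Depth limits all counts here: most members had fewer than 4 counts in each library.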
